A study of Mus musculus with 12 samples.

Results

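The aminoacyl-tRNA synthetases were followed in mouse germinal vesicle (GV)-stage oocytes, as the 36 genes whose symbols name a synthetase among the 24255 genes of the deposited expression table. The 20 genes without the suffix 2 were taken as the cytosolic enzymes, and the 16 genes with it as the mitochondrial enzymes. Each value is in FPKM, the number of fragments (read pairs) scaled to the length of the transcript and to the mapped fragments of the library. Of the 36 genes, 26 (18 cytosolic and 8 mitochondrial) reached 1 FPKM in at least 1 library and could be tested.

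The study asked what the loss of DPAGT1, the enzyme that begins the assembly of the sugar chain for protein N-glycosylation, does to the oocyte. There were 12 Smart-seq2 libraries in 4 groups of 3, each library made from 20 oocytes of C57BL/6 females aged 3 weeks, collected 46 h after 5 IU of PMSG, a gonadotropin that stimulates follicle growth. The WT group (replicates 4, 5 and 6) had genotype WT by its label, which names neither a floxed allele nor a Cre transgene. The MUT group (replicates 1, 2 and 3) carried the D166G missense mutation of Dpagt1, which was induced by ethylnitrosourea, in the whole body, so its granulosa cells carried it as well as its oocytes. The GcKO group (replicates 1, 2 and 3) was Dpagt1F/F Gdf9CRE/+, in which Cre recombinase from the Gdf9 promoter deletes the floxed gene in oocytes. The AmcKO group (replicates 4, 5 and 6) was Dpagt1F/F Amhr2CRE/+, in which the Amhr2 promoter drives Cre in granulosa cells, so the oocytes measured kept their own Dpagt1. Nothing in the labels says whether the libraries of a group came from separate females, so the p-values measure only the spread between these libraries, which may be technical. All comparisons with WT used the same 3 WT libraries.

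Aminoacyl-tRNA synthetases attach each amino acid to its matching tRNA and so supply the ribosome with substrates. Most amino acids have 1 nuclear gene for the cytosolic enzyme and another for the mitochondrial enzyme, while Gars and Kars encode both forms. Part of the cytosolic enzymes are held in the multisynthetase complex by the scaffold proteins encoded by Aimp1, Aimp2 and Eef1e1. In many cell types, genes of cytosolic synthetases are targets of the transcription factor ATF4, the effector of the integrated stress response, which is set off by unfolded protein in the endoplasmic reticulum or by amino acid shortage. Fully grown oocytes make little new RNA, and their RNA levels largely reflect stored transcripts.

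ATF4 acts on DNA elements that often read TGATGNAA, where N is any base. These letters were searched on both strands of the RefSeq promoter windows (GRCm38.p6), which span 250 bases before to 50 bases after each start site. They were found in 3.97% of all 32851 windows. Genes, by contrast, were counted as holding the letters if any of their windows did, so the shares are not directly comparable. Windows were searched for 26 of the 36 synthetases, and 5 of these held the letters, namely Aars, Gars, Iars, Tars and Yars. All 5 were among the 12 cytosolic genes with a searched window, and none of the 14 mitochondrial genes with a searched window held them. The sequences are shown because 4 of these 5 genes were called higher in MUT or GcKO oocytes, as the values further on show. Of the 10 genes listed for the integrated stress response, all had a window and 3 held the letters, namely Trib3, Asns, the asparagine synthetase gene, and Chac1, a glutathione-degrading enzyme gene. The other 7 did not, Psat1 and Phgdh among them. Asns and Chac1 are printed beside the synthetases as known ATF4 targets. Each line gives 30 bases on the strand that reads the letters, 5′ to 3′, with the 8 matching bases in capitals.
Aars, chr8:111033840-111033869, minus strand: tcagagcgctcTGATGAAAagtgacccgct
Gars, chr6:55037960-55037989, minus strand: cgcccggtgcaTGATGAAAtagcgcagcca
Iars, chr13:49682126-49682155, minus strand: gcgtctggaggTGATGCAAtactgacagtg
Tars, chr15:11399655-11399684, plus strand: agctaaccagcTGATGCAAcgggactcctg
Yars, chr4:129189895-129189924, plus strand: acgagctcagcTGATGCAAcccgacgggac
Asns, chr6:7693214-7693243, minus strand: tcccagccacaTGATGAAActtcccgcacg
Chac1, chr2:119351038-119351067, minus strand: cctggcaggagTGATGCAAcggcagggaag
A match of these letters describes the sequence and does not show that a factor was bound there. Cars, Hars, Lars, Mars, Nars, Rars, Vars, Wars, Hars2 and Pars2 were not searched. Whether their promoters hold the letters is therefore left open, and Nars, called higher in MUT, is among them.

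The libraries differed in scale between the groups. FPKM summed to between 1167360 and 1226000 over the WT libraries and to 883256 to 1107920 over the AmcKO libraries. The sums were lower elsewhere, at 589617 to 611597 in MUT and at 482314 to 684212 in GcKO. When every library was scaled to the same sum, the median log2 fold change over all tested genes moved from 0.12 to 0.71 in MUT against WT, from 0.12 to 0.74 in GcKO against WT and from 0.03 to 0.21 in AmcKO against WT, so changes are also given relative to these medians. Low FPKM values of long genes with 1 annotated transcript fell on whole multiples of a library-specific step, and 64.9% to 68.8% of such values between 0.5 and 5.5 steps lay within 0.1 of a whole number. From this step, 1 fragment on a transcript of 1 kb was worth 1.62 to 1.89 FPKM in the WT libraries. It was worth less in the others, with 0.709 to 0.859 FPKM for MUT, 0.641 to 1.07 FPKM for GcKO and 0.862 to 1.07 FPKM for AmcKO. The same FPKM therefore rested on fewer fragments in WT than in MUT, and estimated fragments are given for the called synthetases and for Asns, Chac1 and Inha. All 10 oocyte markers, among them Zp3 and Gdf9, were above 0 in every library. Dpagt1 itself was listed at 0 in all WT and AmcKO libraries, at 0.878, 0.408 and 0.985 FPKM in MUT and at 0, 0.366 and 0 FPKM in GcKO, so at this depth it does not show the deletion.

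The synthetases covered a wide range of levels. Mean FPKM over the 12 libraries was above 10 for 6 genes, between 1 and 10 for 14 and below 1 for 16. Over all tested genes, the median of this mean was 3.35 FPKM. The cytosolic genes had a median of 3.42 FPKM and the mitochondrial genes a median of 0.333 FPKM. All 12 libraries had a value above 0 for 14 of the 20 cytosolic genes and for 3 of the 16 mitochondrial genes, Fars2, Lars2 and Wars2.

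Fars2, the mitochondrial phenylalanyl-tRNA synthetase, had the highest level of all 36 genes. It stood at 40.3, 65.4 and 66.4 FPKM in WT, 51.0, 43.2 and 31.5 in MUT, 42.4, 43.8 and 59.2 in GcKO, and 40.9, 68.5 and 35.7 in AmcKO. These ranges overlapped between all groups, and 87.8% of the tested genes had a lower mean. The Fars2 gene lies at chr13:36117412-36726280 on the plus strand, and its annotated exons overlap those of Lyrm4 on the other strand by at most 115 bases.

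Iars, the isoleucyl-tRNA synthetase of the multisynthetase complex at chr13:49682100-49734267, was next. Its levels were 11.3, 10.6 and 17.2 FPKM in WT, 20.3, 18.4 and 23.0 in MUT, 32.8, 23.8 and 21.1 in GcKO, and 15.8, 16.5 and 19.0 in AmcKO. Every MUT and GcKO library lay above every WT library. Rars, the arginyl-tRNA synthetase, was the third by mean. It stood at 16.7, 24.6 and 17.0 FPKM in WT, 18.1, 15.7 and 14.7 in MUT, 9.25, 15.1 and 18.7 in GcKO, and 8.54, 16.1 and 13.8 in AmcKO. Rars thus overlapped with WT in MUT and GcKO, and its 3 AmcKO values lay below the 3 WT values without passing the test.

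The next genes by mean were Nars, the asparaginyl-tRNA synthetase (7.10 to 22.3 FPKM over the 12 libraries), Farsb, the beta subunit of the cytosolic phenylalanyl enzyme (9.38 to 17.7), and Dars, the aspartyl-tRNA synthetase (7.92 to 17.2). The neighbours in this order from Iars to Dars overlapped in their ranges. Farsa, the alpha subunit that pairs with Farsb, ran lower, from 0.965 to 9.20 FPKM. The mean level was between 1 and 4 FPKM for Sars, Gars, Kars, Wars, Eprs, Hars, Tars, Cars, Aars and Lars among the cytosolic genes and for Lars2, Rars2 and Pars2 among the mitochondrial genes.

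At the low end, Mars reached 2.63 FPKM in WT replicate 5 and was at 0 in 6 libraries, and Qars reached 1.14 FPKM in MUT replicate 1 and was at 0 in 7. Among the mitochondrial genes, Sars2 reached 2.02, Yars2 2.09, Tars2 1.61 and Wars2 1.75 FPKM. The highest value of Ears2 was 0.486, of Aars2 0.644, of Mars2 0.582, of Iars2 0.586, of Cars2 0.453, of Vars2 0.172 and of Vars 0.181 FPKM. Yars, Hars2 and Nars2 were listed at 0 in all 12 libraries, and as every cell needs a tyrosyl-tRNA synthetase, these zeros are given only as listed. Together the 10 untested genes were Vars and Yars among the cytosolic genes and Aars2, Cars2, Ears2, Hars2, Iars2, Mars2, Nars2 and Vars2 among the mitochondrial ones.

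Each mitochondrial gene was set beside the cytosolic gene for the same amino acid, with Eprs as the partner of Ears2 and Pars2 because it charges both glutamate and proline, and Farsa as the partner of Fars2. The cytosolic gene had the higher mean FPKM in 12 of 16 pairs and the higher value in all 12 libraries in 7 pairs. Fars2 and Lars2 were above Farsa and Lars in all 12 libraries. The other two pairs with a higher mitochondrial mean, Vars2 with Vars and Yars2 with Yars, rested on values near 0.

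**Figure D1:**
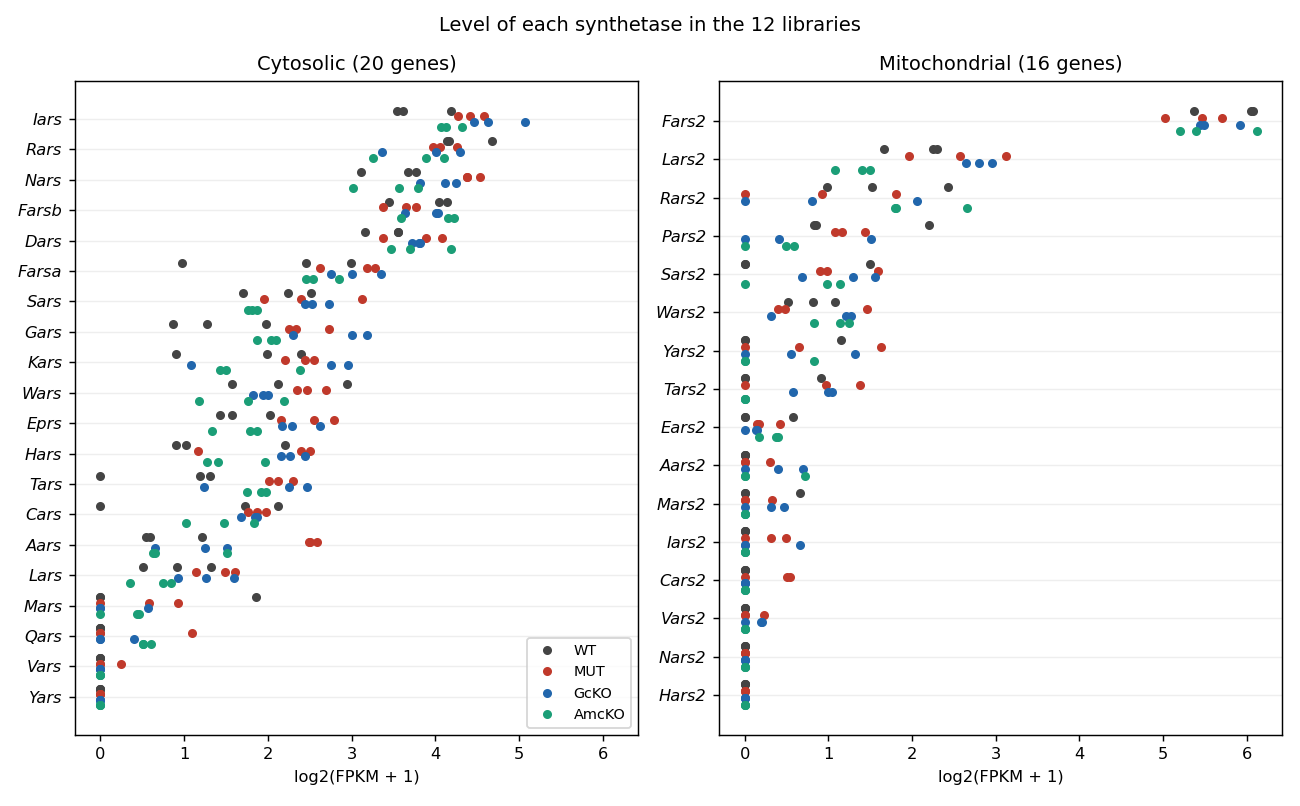
Level of each of the 20 cytosolic (left) and 16 mitochondrial (right) synthetases as log2(FPKM + 1), 1 point per library, coloured by group and sorted by the mean over the 12 libraries. Fars2 stands alone at the top of the mitochondrial genes at 31.5 to 68.5 FPKM, while Yars, Hars2 and Nars2 sit at 0 in every library.

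In MUT oocytes, 4 of the 26 tested synthetases were higher than in WT and none was lower, by limma over all 11233 tested genes with a Benjamini-Hochberg adjusted p below 0.05. The 4 were Aars, Tars, Gars and Nars, all cytosolic enzymes of the class II catalytic fold. Of all tested genes, 20.8% were called in MUT, 9.46% as higher and 11.3% as lower, and of the synthetases 15.4% were called. The count was therefore not above the background in total, and all 4 calls were in the higher direction. That background split moved with the scaling, from 1063 higher and 1269 lower genes as deposited to 4643 higher and 251 lower with the same sum. The median log2 fold change was 0.61 over the 18 cytosolic genes and 0.18 over the 8 mitochondrial genes, beside 0.12 over all genes. All 3 MUT values lay above all 3 WT values for 6 synthetases (Aars, Eprs, Gars, Iars, Nars and Tars), where 20.2% of all genes did so, and for none did they lie below, where 16.9% of all genes did.

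Aars, the alanyl-tRNA synthetase at chr8:111033144-111057664, had the largest change of the 26. It was at 0.452, 0.511 and 1.32 FPKM in WT and at 4.99, 4.61 and 4.65 FPKM in MUT. The GcKO values were 1.85, 1.39 and 0.577 FPKM and the AmcKO values 0.576, 0.543 and 1.86 FPKM. Every MUT library stood above all 9 other libraries, and the 3 MUT values lay close together. The mean rose from 0.760 ± 0.483 FPKM (SD, n = 3) to 4.75 ± 0.211 FPKM (SD, n = 3), a ratio of 6.25. The log2 fold change on the log2(FPKM + 1) scale was 1.74 ± 0.35 (SE; adjusted p = 0.00335, limma), and 1.62 relative to the median of all genes. After scaling to 1 common sum it was 1.63 relative to that median. In estimated fragments, the WT values rested on 1.0, 1.0 and 3.0 and the MUT values on 23.8, 23.8 and 19.8. Aars was called in each of the 15 alternatives in which it was tested, those without 1 library included. A filter at a mean of at least 5 FPKM left it untested. The exons of the annotated Aars gene overlap those of Exosc6 on the same strand, but the deposited locus of Aars ends before that gene.

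Tars, the threonyl-tRNA synthetase at chr15:11382301-11399665, was at 0, 1.49 and 1.27 FPKM in WT and at 3.93, 3.36 and 3.05 FPKM in MUT. Its values were 1.35, 4.54 and 3.78 in GcKO and 2.93, 2.77 and 2.37 in AmcKO. The 3 MUT and the 3 AmcKO libraries all stood above WT, and GcKO replicate 1 fell among the WT values. The log2 fold change in MUT was 1.31 ± 0.40 (SE; adjusted p = 0.0315, limma). The WT values rested on at most 2.1 estimated fragments, and the call was lost without WT replicate 4 (adjusted p = 0.112), MUT replicate 1 (0.0927), MUT replicate 2 (0.0781) or MUT replicate 3 (0.0682). It was also lost with a pseudocount of 0.1, with quantile normalization, without the filter on low values and with only the 2 groups compared.

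Gars, the glycyl-tRNA synthetase of both compartments at chr6:55038007-55079500, was at 2.93, 0.829 and 1.42 FPKM in WT and at 4.05, 5.63 and 3.78 FPKM in MUT. It was highest in GcKO, with 8.12, 3.94 and 7.03 FPKM, and at 3.28, 3.10 and 2.65 FPKM in AmcKO. No MUT or GcKO value overlapped with WT. The log2 fold change in MUT was 1.07 ± 0.34 (SE; adjusted p = 0.0380, limma). The call in MUT was lost without WT replicate 5 (adjusted p = 0.124), WT replicate 6 (0.0839), MUT replicate 1 (0.0762), MUT replicate 2 (0.132) or MUT replicate 3 (0.0688). It was also lost with quantile normalization, without the filter on low values and with only the 2 groups compared. Estimated fragments of Gars were 4.2, 1.0 and 2.1 in WT and 12.6, 18.9 and 10.5 in MUT.

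Nars was the most abundant of the 4. It stood at 11.8, 12.6 and 7.62 FPKM in WT, at 19.9, 19.8 and 22.3 FPKM in MUT, at 18.002, 13.1 and 16.3 FPKM in GcKO and at 10.9, 7.10 and 12.8 FPKM in AmcKO. The MUT values lay above those of all other libraries, and WT and AmcKO overlapped. The log2 fold change in MUT was 0.92 ± 0.25 (SE; adjusted p = 0.0191, limma), with 12.4 to 18.6 estimated fragments in WT and 68.3 to 73.6 in MUT. The call was lost without WT replicate 6 (adjusted p = 0.0717) or MUT replicate 3 (0.0687).

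Of the other 22 tested synthetases in MUT, Eprs and Iars came nearest to the threshold. Eprs, the bifunctional glutamyl-prolyl enzyme, was at 1.70, 3.07 and 1.98 FPKM in WT and 5.94, 3.45 and 4.88 FPKM in MUT, a log2 difference of 0.82 (adjusted p = 0.0670, limma). The Iars difference was 0.64 (adjusted p = 0.0598, limma). The estimates of the remaining cytosolic genes were 0.89 for Farsa, 0.65 for Hars, 0.64 for Kars, 0.59 for Cars, 0.50 for Lars, 0.37 for Qars, 0.36 for Dars, 0.34 for Sars, 0.29 for Wars, -0.12 for Mars, -0.24 for Rars and -0.28 for Farsb, none of them past the threshold. The 8 mitochondrial estimates ranged from -0.73 for Rars2 to 0.66 for Sars2, and none had an unadjusted p below 0.05.

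**Figure D2:**
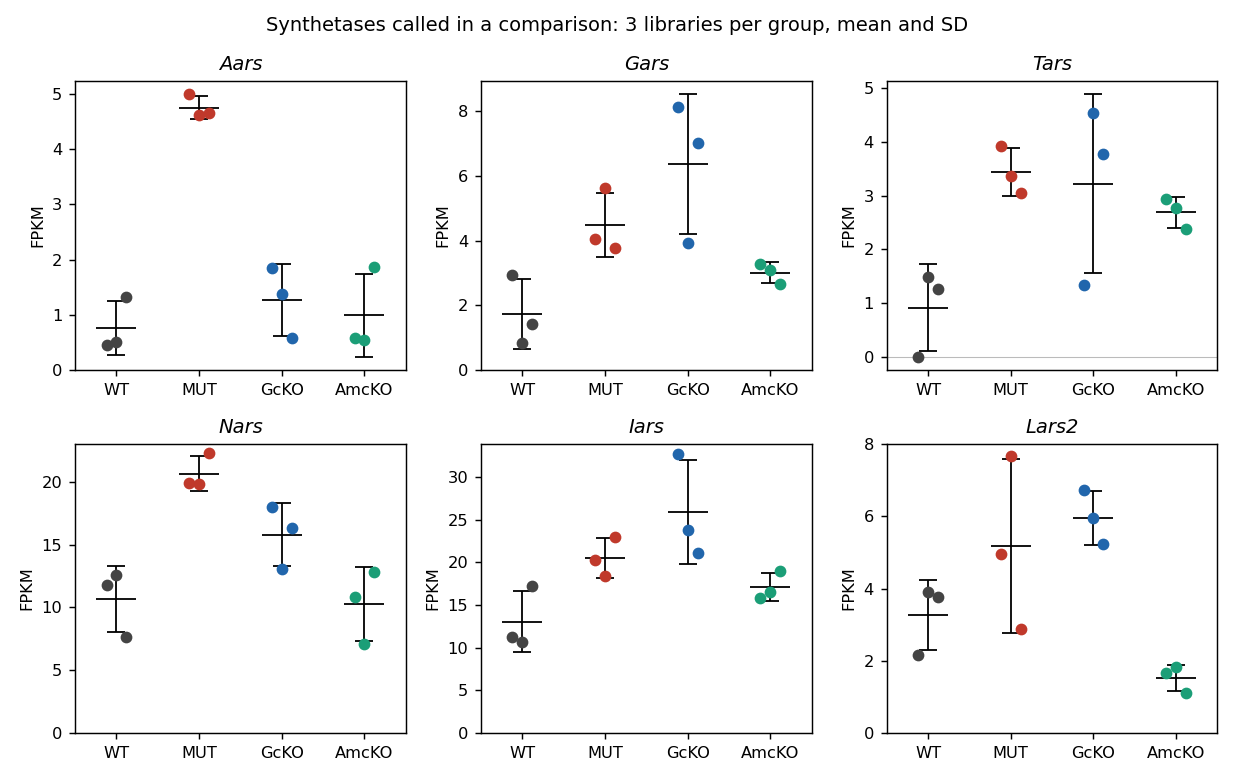
FPKM of the 6 synthetases that were called in at least 1 comparison, in the 3 libraries of each group (points) with the mean and SD (bars). Aars is at 4.61 to 4.99 FPKM in MUT and at most 1.86 FPKM in the other 9 libraries, while Gars and Iars are highest in GcKO and Lars2 is lowest in AmcKO.

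In GcKO oocytes, 2 of the 26 tested synthetases, Gars and Iars, were higher than in WT and none was lower. Among all genes 20.2% were called in GcKO, 8.71% as higher and 11.4% as lower, so the synthetases' share of 7.69% was below the background. The split of all genes went from 978 higher and 1286 lower to 4767 higher and 240 lower with the same sum. Gars had a log2 fold change of 1.46 ± 0.34 (SE; adjusted p = 0.00779, limma) and a ratio of means of 3.68. It kept its call in all 15 alternatives in which it was tested, and a filter at a mean of at least 5 FPKM left it untested. Relative to the median of all genes, the change was 1.34 as deposited and 1.47 with the same sum. Its 3 GcKO values rested on 28.2, 14.6 and 15.7 estimated fragments.

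Iars rose in GcKO by 0.94 ± 0.23 on the log2 scale (SE; adjusted p = 0.00958, limma), from a mean of 13.045 ± 3.605 FPKM (SD, n = 3) to 25.9 ± 6.09 FPKM (SD, n = 3). GcKO replicate 1 was the highest at 32.8 FPKM, and without it the adjusted p was 0.0509. Its WT values rested on 24.8 to 46.6 estimated fragments and its GcKO values on 87.1 to 210.0.

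The next largest cytosolic estimates in GcKO were 1.15 for Tars (adjusted p = 0.0561, limma), 0.92 for Hars, 0.89 for Farsa, 0.68 for Eprs and 0.54 for Nars, none of them past the threshold. The negative cytosolic estimates were -0.44 for Rars, -0.43 for Mars and -0.29 for Wars. The mitochondrial estimates ranged from -0.69 for Rars2 to 0.73 for Lars2 (adjusted p = 0.134, limma), and none was called. The estimate for Aars was 0.36 (adjusted p = 0.499, limma). The median was 0.46 over the cytosolic and 0.18 over the mitochondrial genes, beside 0.12 over all genes. For 6 genes, Dars, Eprs, Gars, Iars, Nars and Lars2, all GcKO values lay above all WT values, where 18.2% of all genes did so, and for none below, where 16% did. Because both comparisons share the WT libraries, their values are given side by side and no likeness between them is drawn.

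GcKO and MUT were also compared directly. No synthetase passed the threshold, by limma, 1 of the 26 had an unadjusted p below 0.05, and 0.205% of all genes were called, 0.0712% as higher. The GcKO values of Aars, Nars and Wars lay below all MUT values, as those of 6.87% of all genes did, and no synthetase lay above them, as 6.42% of all genes did. The gene with that p was Aars, whose GcKO values of 0.577 to 1.85 FPKM lay below its MUT values of 4.61 to 4.99 FPKM, a log2 difference of -1.38 ± 0.35 (SE; adjusted p = 0.179, limma). The higher Aars level in MUT is thus not shown to differ from GcKO.

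In AmcKO oocytes no synthetase was called against WT by limma, 2 of the 26 had an unadjusted p below 0.05, and 0.214% of all genes were called, 0.0979% as higher. The 2 were Tars, with a log2 difference of 1.05 (adjusted p = 0.233, limma), and Lars2, the mitochondrial leucyl-tRNA synthetase, with -0.74 (adjusted p = 0.299, limma). The median was 0.13 over the cytosolic and -0.18 over the mitochondrial genes, beside 0.03 over all genes. All AmcKO values lay above all WT values for Qars and Tars, where 9.22% of all genes did so, and below them for Rars, Lars2 and Pars2, where 8.61% did.

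**Figure D3:**
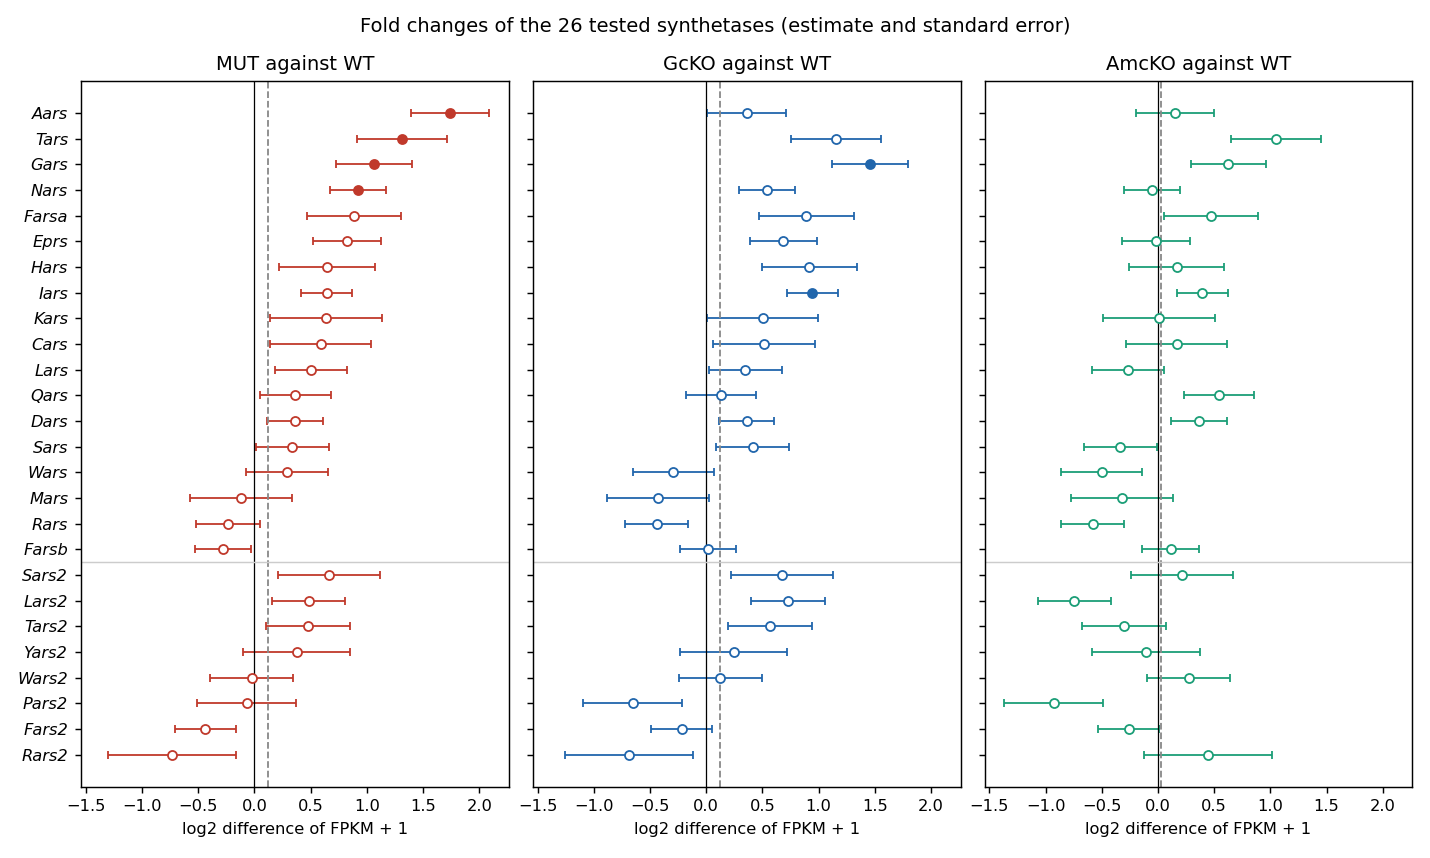
Log2 fold change on the log2(FPKM + 1) scale, with its standard error, of the 26 tested synthetases in MUT, GcKO and AmcKO against WT, cytosolic genes above the grey line and mitochondrial genes below it. Filled points passed an adjusted p of 0.05 and the dashed line is the median over all tested genes, 0.12 in MUT and GcKO and 0.03 in AmcKO.

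MUT and GcKO, whose oocytes carry the defect, were also set against AmcKO, whose oocytes do not. In MUT against AmcKO, 3 synthetases were higher and none lower, while 6.49% of all genes were called, 1.42% as higher and 5.07% as lower. They were Aars (log2 difference 1.59 ± 0.35, adjusted p = 0.0148), Lars2 (1.225 ± 0.33, adjusted p = 0.0389) and Nars (0.98 ± 0.25, adjusted p = 0.0319), with SE and limma p-values. Without any 1 of the 6 libraries other than AmcKO replicate 6, the Aars call was lost, with adjusted p between 0.0532 and 0.0659, and so was the Nars call, with adjusted p between 0.0669 and 0.132. The Lars2 call was lost without any 1 library other than MUT replicate 3, with adjusted p between 0.0760 and 0.178. It was also lost with quantile normalization (adjusted p = 0.0772), without the filter on low values (0.0585) and with only the 2 groups fitted (0.0586), and the Nars call was lost without the variance trend (0.0628). In GcKO against AmcKO, Lars2 was higher (1.47 ± 0.33, adjusted p = 0.0176) and no other synthetase was called, where 5.46% of all genes were, 0.668% as higher and 4.79% as lower. Lars2, at chr9:123366927-123462666, was at 2.16, 3.90 and 3.77 FPKM in WT, at 4.96, 7.69 and 2.88 in MUT, at 6.72, 5.95 and 5.23 in GcKO and at 1.65, 1.81 and 1.11 in AmcKO. Its AmcKO values lay below all other libraries and its GcKO values above WT, and it was called against WT in none of the 3 groups. The AmcKO values rested on 5.0 to 7.0 estimated fragments, and without 1 library the call in GcKO against AmcKO was lost for GcKO replicate 1 (adjusted p = 0.0759), GcKO replicate 2 (0.0576), AmcKO replicate 4 (0.0512) and AmcKO replicate 6 (0.0542), and it was lost with quantile normalization (0.0508).

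Summed over the genes, the cytosolic synthetases came to 88.6, 95.1 and 94.0 FPKM in WT and to 129, 134 and 124 FPKM in MUT. They came to 132, 126 and 118 FPKM in GcKO and to 81.4, 95.7 and 108 FPKM in AmcKO. The MUT and GcKO sums did not overlap with those of WT or AmcKO, and WT and AmcKO overlapped. As deposited, the mitochondrial sums, mostly Fars2, ran from 46.2 to 78.6 FPKM over WT and overlapped between all groups. The lowest of the 12 was 41.5 FPKM in MUT. This overlap depended on the scaling. With every library scaled to the same sum, the mitochondrial sums were 37.7 to 67.3 scaled FPKM in WT and 47.2 to 69.7 in AmcKO. They were 70.3 to 103.5 in MUT and 91.9 to 124.9 in GcKO, above every WT and AmcKO value. The cytosolic sums of WT (72.3 to 81.4) and AmcKO (84.2 to 122.5) then no longer overlapped, and those of MUT and GcKO stayed above both. Each sum rests on genes of unequal level and carries no test.

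The enzymes of the multisynthetase complex (Dars, Eprs, Iars, Kars, Lars, Mars, Qars and Rars) were all tested. None was called in MUT or AmcKO and 1, Iars, in GcKO, with medians of 0.43 in MUT and 0.35 in GcKO. Of all genes, 20.8% were called in MUT, 0.214% in AmcKO and 20.2% in GcKO, and their median was 0.12 in both MUT and GcKO. The scaffold gene Eef1e1 changed the other way. It was at 971, 987 and 1106 FPKM in WT, at 413, 414 and 332 in MUT, at 287, 343 and 360 in GcKO and at 728, 763 and 502 in AmcKO. All 9 libraries of the 3 other groups lay below WT. Its log2 fold change was -1.41 ± 0.17 in MUT (SE; adjusted p = 0.000156, limma) and -1.63 ± 0.17 in GcKO (SE; adjusted p = 9.25e-05, limma), and -0.64 in AmcKO (adjusted p = 0.135, limma). Scaled to the same sum, the changes were -0.41 in MUT and -0.59 in GcKO, both still called. Aimp2 was at 54.8, 82.0 and 62.4 FPKM in WT and 33.0, 52.3 and 36.6 in GcKO, where it was lower (log2 fold change -0.70, adjusted p = 0.0486, limma), and with the same sum its sign turned to 0.32 without a call. That call was lost without WT replicate 5 (adjusted p = 0.160), WT replicate 6 (0.0798), GcKO replicate 1 (0.177) or GcKO replicate 3 (0.110). Aimp1 was not called in any comparison, with means of 18.9 FPKM in WT, 10.1 in MUT, 6.64 in GcKO and 17.2 in AmcKO.

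Of the 12 cytosolic synthetases listed as ATF4-linked, 11 were tested, and 4 were higher in MUT, 2 in GcKO and none in AmcKO, with medians of 0.64, 0.52 and -0.02. Over all genes, 9.46%, 8.71% and 0.0979% were called higher in these groups, with medians of 0.12, 0.12 and 0.03. Among the integrated stress response genes, 5 of 7 tested genes were higher in MUT and none lower, where 9.46% of all genes were higher and 11.3% lower. In GcKO 1 was higher and 1 lower, where 8.71% and 11.4% of all genes were. Asns and Psat1 reached 1 FPKM only in MUT libraries, so they entered the test through the group where they were high. Trib3, Sesn2 and Eif2ak3 stayed below 1 FPKM in every library and were not tested. The count of 5 of 7 is therefore a description only. Atf4 rose from 15.9, 33.0 and 20.5 FPKM in WT to 96.2, 102 and 122 FPKM in MUT, a log2 fold change of 2.21 ± 0.32 (SE; adjusted p = 0.000413, limma). It was at 72.5, 45.5 and 28.1 FPKM in GcKO, where the log2 fold change was 1.00 (adjusted p = 0.0413, limma). GcKO replicate 3 lay within the WT range, and the call in GcKO was lost without WT replicate 4 (adjusted p = 0.141), WT replicate 6 (0.0970), GcKO replicate 1 (0.193) or GcKO replicate 2 (0.0913).

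Asns, the asparagine synthetase whose product Nars attaches to its tRNA, was listed at 0 in all WT libraries and at 3.89, 6.02 and 4.85 FPKM in MUT (adjusted p = 0.000176, limma). Its MUT values rested on 9.8, 16.4 and 10.9 estimated fragments. It was at 0.771, 0.722 and 0 FPKM in GcKO and at 0.601, 0 and 0 FPKM in AmcKO. The direct comparison of GcKO with MUT called it lower (adjusted p = 0.0190, limma), though not without MUT replicate 1 (adjusted p = 0.0531), MUT replicate 2 (0.101), MUT replicate 3 (0.0950) or GcKO replicate 3 (0.0993), nor with a replicate block (0.101) or a pseudocount of 0.1 (0.307). Chac1 was at 0, 1.36 and 0 FPKM in WT and 2.22, 4.13 and 6.23 FPKM in MUT (adjusted p = 0.00794, limma), with at most 0.987 FPKM in GcKO. Its values rested on at most 1.1 estimated fragments in WT and on 4.5, 9.2 and 11.4 in MUT. Asns and Chac1 were thus high in the group in which Aars was high.

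Psat1 and Phgdh, enzymes of serine synthesis, were also called in MUT (adjusted p = 0.0373 and 0.0462, limma). Psat1 was listed at 0 in the 9 libraries outside MUT and at 0.378, 0.700 and 2.54 FPKM in MUT, and Phgdh was at 0.941 to 1.10 FPKM in WT and at 2.91 to 5.02 FPKM in MUT. Psat1 lost its call without any 1 of the WT libraries (adjusted p at most 0.0796) or without MUT replicate 2 (0.0556), and Phgdh lost its call without any 1 library of the 6 (adjusted p up to 0.152). Ddit3, which encodes the stress factor CHOP, was lower in GcKO (log2 fold change -0.96, adjusted p = 0.0123, limma), at 145, 202 and 258 FPKM beside 316, 353 and 501 FPKM in WT. With the same sum, its sign turned to 0.076 without a call, and it was not called without WT replicate 6 (adjusted p = 0.0547) or GcKO replicate 1 (0.0616). Of the amino acid transporters, 1 of 3 tested genes was called in MUT and none in GcKO or AmcKO, where 20.8%, 20.2% and 0.214% of all genes were. It was Slc3a2, the heavy chain shared by several transporters, at 24.4, 13.03 and 15.8 FPKM in WT and 45.9, 63.0 and 58.3 FPKM in MUT (log2 fold change 1.63 ± 0.26 SE, adjusted p = 0.000847, limma).

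**Figure D4:**
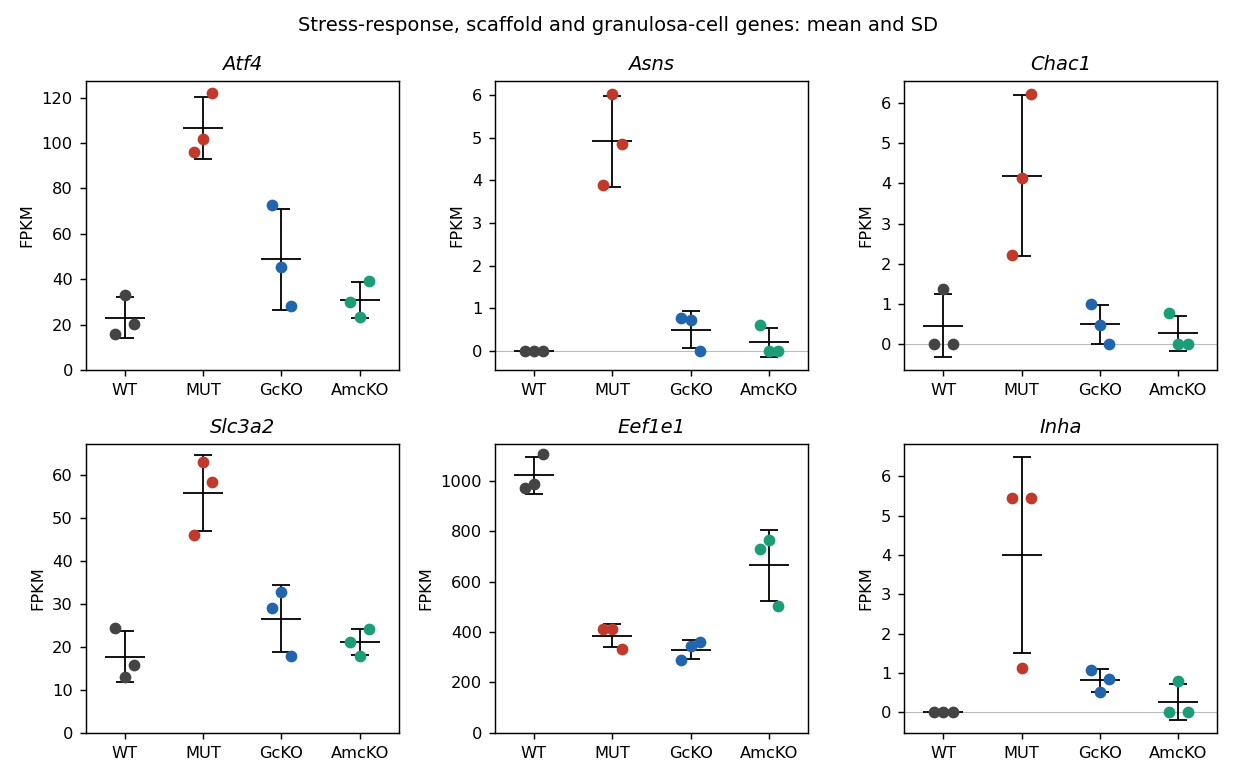
FPKM of Atf4, Asns, Chac1, Slc3a2, the scaffold gene Eef1e1 and the granulosa-cell gene Inha in the 3 libraries of each group (points) with the mean and SD (bars). Asns is at 3.89 to 6.02 FPKM in MUT and at most 0.771 FPKM elsewhere, and Eef1e1 is highest in WT at 971 to 1106 FPKM.

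Markers of granulosa cells, which surround the oocyte, were counted in each library. Of the 12 granulosa and cumulus markers, 7 were above 0 in every MUT library, 5 or 6 in GcKO, 3 or 4 in AmcKO and 2 or 3 in WT. Over the whole table, too, fewer genes were above 0 in WT (9359 to 9622) than in MUT (11208 to 11467), GcKO (10733 to 11608) or AmcKO (10399 to 10921). The difference in the marker counts was not tested. Their summed level, mostly Cyp19a1, overlapped between the groups, with 17.6 to 21.7 FPKM over WT and 14.7 to 26.4 FPKM over MUT. The GcKO sums were 12.5 to 26.4 FPKM and the AmcKO sums 10.9 to 21.6 FPKM. Cyp19a1 itself, the aromatase gene, was at 17.1, 20.1 and 15.1 FPKM in WT and at 8.88, 9.49 and 13.4 FPKM in MUT. Its MUT values all lay below WT without passing the test (log2 difference -0.68, adjusted p = 0.185, limma). Foxl2, Amh, Amhr2 and Ptx3 were at 0 in all 12 libraries. Inha, an inhibin subunit gene, was listed at 0 in WT and at 5.44, 1.13 and 5.44 FPKM in MUT, and Hsd17b1, an estrogen-forming enzyme gene, at 0 in WT and at 2.06, 0.642 and 3.09 FPKM in MUT, both called (adjusted p = 0.00260 and 0.0118, limma). The MUT values of Inha rested on 10.4, 2.3 and 9.3 estimated fragments. Inha and Hsd17b1 were lowest in MUT replicate 2. The synthetases, stress-response genes and Slc3a2 called higher in MUT were mixed in that library. Aars (4.61 FPKM beside 4.99 and 4.65), Nars (19.8 beside 19.9 and 22.3) and Phgdh (2.91 beside 3.58 and 5.02) were lowest there. Asns (6.02 beside 3.89 and 4.85), Slc3a2 (63.0 beside 45.9 and 58.3) and Gars (5.63 beside 4.05 and 3.78) were highest there. Tars, Atf4, Chac1 and Psat1 lay in between. Hsd17b1 reached 1 FPKM only in MUT libraries, so it entered the test through the group where it was high. The part of granulosa-cell RNA in the MUT values was not tested. In such pooled libraries, more cells of a type and more RNA per cell cannot be told apart.

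The other lists held mixed calls. Among the 7 editing and related genes, 6 were tested. Prorsd1, a homologue of the editing domain of prolyl-tRNA synthetases, was lower in MUT (12.4, 8.01 and 12.01 FPKM in WT, 3.26, 3.41 and 2.74 in MUT; log2 fold change -1.49, adjusted p = 0.00233, limma). Scaled to the same sum, it kept its sign at -0.65 and missed the threshold. Sepsecs, the enzyme that completes selenocysteinyl-tRNA, was lower in MUT (-0.71) and GcKO (-0.95), and with the same sum its sign turned in both. Its call in MUT was lost without WT replicate 6 (adjusted p = 0.0781), MUT replicate 2 (0.0584) or MUT replicate 3 (0.107). Of the 10 tested genes of tRNA delivery and maturation, 3 were called in both MUT and GcKO, not far from the 20.8% and 20.2% of all genes called there. Trnt1, which adds the CCA end to tRNAs, was lower (-1.27 and -1.32), at 59.9, 72.7 and 60.03 FPKM in WT, 25.4, 23.4 and 29.5 in MUT and 21.9, 23.4 and 30.3 in GcKO, and kept its sign but not its call with the same sum. Eef1d, a subunit of the exchange factor for the tRNA carrier EF1A, was lower (-0.78 and -0.74), and its sign turned with the same sum. Its call in MUT was lost without WT replicate 4 (adjusted p = 0.0509), WT replicate 5 (0.0535) or MUT replicate 3 (0.0633). Gfm2, a mitochondrial ribosome-recycling factor, was higher, by 1.68 in MUT and 1.235 in GcKO. Its call in GcKO was lost without WT replicate 5 (adjusted p = 0.0821), GcKO replicate 1 (0.0718) or GcKO replicate 2 (0.0570). Of the 5 other genes of mitochondrial aminoacylation, 2 were tested and none was called in MUT, GcKO or AmcKO.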

How the data were processed

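RNA-Seq libraries of 20 GV-stage oocytes were made by the authors with Smart-seq2 and a NEBNext kit. Per the labels and the study's methods, reads of 150 nt were aligned to mm10 with TopHat2 2.0.13, and FPKM were computed with Cufflinks 2.2.1, with Cuffnorm and Cuffdiff also named in the submitters' processing notes. The gene annotation is not given in the sources used here. The authors deposited 1 table with FPKM for each library, and 18 columns of their own comparisons (p and q values with log2 ratios), which were not used.

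The members and lists were chosen with earlier results of these data known. log2(FPKM + 1) was tested with limma 3.58.1 (R 4.3.3, abundance trend) in 1 fit of 12 libraries with 8 residual degrees of freedom, over the 11233 genes with at least 1 FPKM in at least 1 library, with two-sided Benjamini-Hochberg adjusted p-values under 0.05 over all of them. An exact permutation test of 3 against 3 libraries cannot go below 0.1 and was not used for calls. Estimated fragments were FPKM times the annotated exon length inside the deposited locus (GENCODE M21, GRCm38) divided by the library's step, which was read from transcripts over 3000 nt. They are estimates, cover counting error only, and were not used in a test. Every member was named. Values in every library were given for members called in MUT or GcKO against WT and for the 3 highest means, and would have been for a member listed at 0 throughout 1 group and at 1 FPKM or more throughout another; Lars2, Eprs and the listed genes were added by their calls or after their values were seen. Motif searches used Python 3.11.15. Not every sequence found is reported here.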

Additional observations from a re-analysis of the deposited data

Results flagged for a closer look

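Of the results on synthetases, 4 stood out because the effects of 2 genotypes against WT differed by a test of the difference itself, which equals the direct comparison of the 2 groups. For Aars, the effect of MUT exceeded that of AmcKO by 1.59 on the log2(FPKM + 1) scale (adjusted p = 0.0148, limma), with all 3 MUT libraries above all 3 AmcKO libraries. For Nars, it exceeded it by 0.98 (adjusted p = 0.0319, limma), again in 3 of 3 libraries. For Lars2, the effect of MUT exceeded that of AmcKO by 1.225 (adjusted p = 0.0389, limma) and the effect of GcKO exceeded it by 1.47 (adjusted p = 0.0176, limma), with every MUT and GcKO library above every AmcKO library. Such separation was common. Of the 26 tested synthetases, 10 lay wholly above AmcKO in MUT and 9 in GcKO, where 14% and 12% of all genes did. None lay wholly below AmcKO in MUT and 1 in GcKO, where 14.4% and 11.6% of all genes did. These calls depend on single libraries, and those of Lars2 in both comparisons were lost with quantile normalization (adjusted p = 0.0772 in MUT and 0.0508 in GcKO against AmcKO).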

How the results depend on the processing

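The number of synthetases called against WT depended on the scaling and the filter in MUT and GcKO. Median-of-ratios scaling, which uses only genes above 0 in every library, left the counts as reported in every comparison. The median over all genes then stayed at 0.12 in MUT and in GcKO against WT. In MUT against WT, 4 became 2 without the filter on low values (Aars and Nars), with a mean of at least 5 FPKM (Iars and Nars), with quantile normalization and with only the 2 groups compared, 1 at an adjusted p under 0.01 (Aars), and 16 with the same FPKM sum. Of all genes, 14.1%, 44.6%, 13.1%, 20.3%, 10.2% and 43.6% were called in these settings, in that order, beside 20.8% as reported. In GcKO against WT, 2 became 1 with a mean of at least 5 FPKM and with a fold change over 2, and 14 with the same sum. There 44.2%, 12.2% and 44.6% of all genes were called, beside 20.2% as reported. In MUT against AmcKO, 3 became 1 with a mean of at least 5 FPKM, 9 with the same sum and 0 at an adjusted p under 0.01. The shares of all genes were 20.4%, 22.8% and 2.37%, beside 6.49% as reported. In GcKO against AmcKO, 1 became 0 with a mean of at least 5 FPKM, with quantile normalization and at an adjusted p under 0.01, and 10 with the same sum. The shares of all genes were 18.8%, 2.23%, 1.91% and 23.1%, beside 5.46% as reported. A mean of at least 5 FPKM leaves fewer genes to test, and of the synthetases only Fars2, Iars, Rars, Nars, Farsb, Dars and Farsa. Same-sum scaling raises every library of low sum. With the same sum, all genes called higher and lower went from 159 and 570 to 2393 and 165 in MUT against AmcKO, and from 75 and 538 to 2463 and 128 in GcKO against AmcKO. Leaving out 1 library gave 1 to 4 calls in MUT against WT, 2 to 4 in GcKO against WT, 0 to 2 in MUT against AmcKO and 0 to 1 in GcKO against AmcKO. Of all genes, 13.4% to 18%, 12.2% to 20.7%, 3.19% to 6.41% and 2.81% to 6.76% were then called. AmcKO against WT and GcKO against MUT had 0 calls in each alternative run, where at most 1.21% and 0.632% of all genes were called.

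With the same sum, the log2 fold change of Sepsecs turned to 0.27 in MUT and 0.069 in GcKO, that of Eef1d to 0.19 and 0.28, that of Aimp2 in GcKO to 0.32 and that of Ddit3 in GcKO to 0.076. With median-of-ratios scaling, these changes kept their sign and their call. For other results the cause of a lost call was not tested. Aars in MUT and Gars in GcKO were called in all 15 alternatives in which they were tested, while a mean of at least 5 FPKM removed both from testing. Libraries with the same number in 2 groups shared only that number (correlations of their deviations of -0.0413 to 0.0405). A replicate block could be fitted for AmcKO against WT and GcKO against MUT, which kept 0 synthetases called, and it ended the call of Asns in GcKO against MUT (log2 difference -2.01, adjusted p = 0.101, limma). The other comparisons share no replicate numbers. Low levels limit the precision of some values, since Aars and Tars rested on at most 3.0 estimated fragments in each WT library.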
